A study of Homo sapiens with 2 samples.

Results

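*MAFA*, *UCN3*, *SIX2*, *SIX3* and *ENTPD3* are 5 genes of the adult human beta cell, the insulin-secreting cell of the pancreatic islet. They were chosen by their names, as genes of mature beta cells, and by measured values, because earlier results of the same arrays had placed most of them near background. All 5 were measured, at 6 of the 47323 probes of the array, out of 20046 genes that could be named. Of the 5, only 4 lay near background. *ENTPD3* did not, and the label of genes near background does not hold for it.

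The samples were 2 biological replicates, 1 array each, of stage 6 cells that the labels call stem-cell-derived beta (SC-beta) cells. They were made from HUES8, a single human embryonic stem cell line, by differentiation of cells grown in suspension. The cells were sorted as Nkx6.1+/Ins+ (NKX6-1, a beta-cell transcription factor, and insulin) before RNA was taken by MARIS, a method for fixed, stained and sorted cells. No second group was analysed here, so levels in adult islet cells were not compared, and no test between groups was possible.

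A newly formed beta cell makes insulin before it secretes it with the control of an adult cell, and that later step is called maturation. *MAFA* encodes a basic leucine zipper factor that binds the insulin promoter and that in rodents becomes abundant as beta cells mature. *SIX2* and *SIX3* encode homeodomain factors whose expression in human beta cells rises with age after birth. *UCN3* encodes urocortin 3, a peptide stored with insulin, which in mice prompts delta cells to release somatostatin. *ENTPD3* encodes NTPDase3, a cell-surface enzyme that breaks down extracellular ATP and marks adult human beta cells.

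Values are normalized intensities, the brightness of a probe after background subtraction, so they can lie below 0. Olfactory receptor genes, which are mostly silent outside the nose, served as the measure of background. Their 457 probes had a median of -0.753 on replicate 1 and -1.39 on replicate 2, and 54.9% and 57.3% of them were at or below 0. The background floor was set at their 95th percentile, 18.0 on replicate 1 and 15.9 on replicate 2. A probe was counted as above background when it passed the floor on both arrays, and a gene when any of its probes did. Of the 384 olfactory receptor genes themselves, 8 passed this rule, so a call just over the floor is weak. By this rule 1 of the 5 genes was above background, beside 46.9% of all named genes. The genes were picked partly on these values, so nothing is read from that difference. The median of the 5 genes at their brightest probe was 5.16 on replicate 1 and 6.15 on replicate 2, and the median of all named genes was 20.1 and 22.1.

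**Figure D1:**
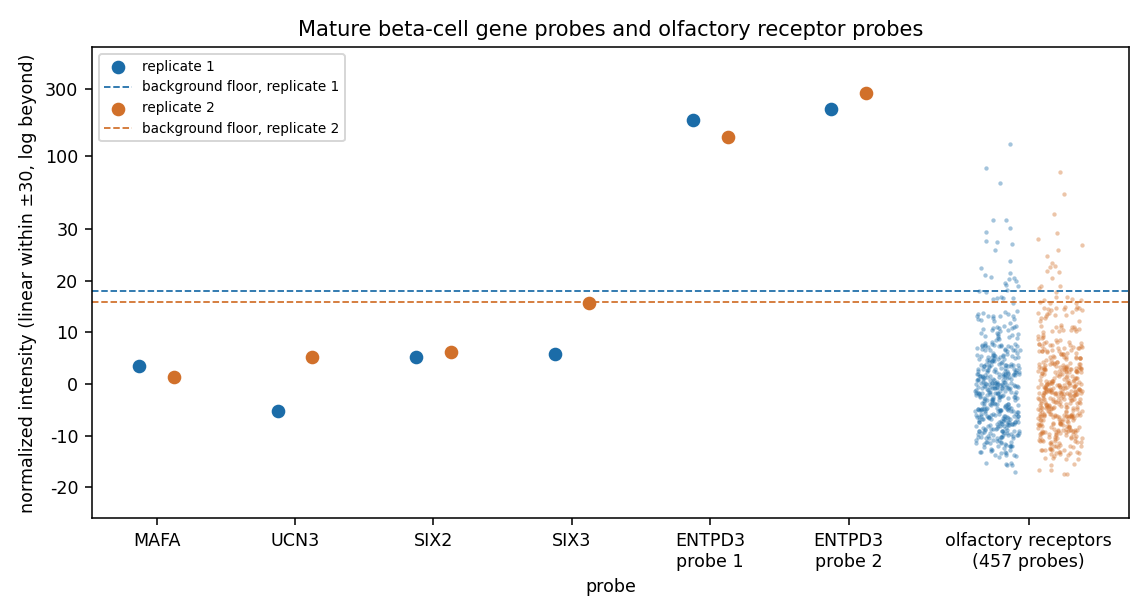
Normalized intensity (vertical axis, linear within ±30 and logarithmic beyond) of the 6 probes of the mature beta-cell genes, with 1 large point per array, and of the 457 olfactory receptor probes, with small points. Dashed lines mark the background floor of each array, at 18.0 and 15.9. The points of *MAFA*, *UCN3*, *SIX2* and *SIX3* fall within the cloud of olfactory receptors, and both *ENTPD3* probes lie above all of it.

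*MAFA* was read by a single probe (ILMN_1661577), which had 3.46 on replicate 1 and 1.34 on replicate 2. Both values lay well under the floor. Of the 457 olfactory receptor probes, 138 were higher than *MAFA* on replicate 1 and 171 on replicate 2, so that it ranked above 69.8% and 62.6% of them. Replicate 2 minus replicate 1 was -2.12, and 80.3% of olfactory receptor probes differed by as much or more. No *MAFA* signal could thus be told from background on either array.

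*SIX2*, also read by a single probe (ILMN_1663772), had 5.16 and 6.15 on replicates 1 and 2. These values ranked above 76.1% and 79.4% of the olfactory receptor probes. The replicates lay 0.987 apart, closer than in 90.2% of olfactory receptor probes. *SIX2* was in the upper part of the background range on both arrays and above the floor on neither.

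*SIX3* came nearest to the floor. Its probe (ILMN_1799076) had 5.88 on replicate 1 and 15.7 on replicate 2, just under the floor of 15.9 on that array. It ranked above 78.6% of olfactory receptor probes on replicate 1 and 94.5% on replicate 2, where 25 of them were higher. The replicates differed by 9.83, a gap that 26.7% of olfactory receptor probes matched or exceeded. On replicate 2 *SIX3* passed the 90th percentile floor (12.1) and a floor from taste receptor and keratin-associated protein probes (14.9), and narrowly a floor from olfactory receptors without pseudogene symbols. It passed no floor on replicate 1, where the lowest one tried was 11.9.

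*UCN3* had -5.28 on replicate 1 and 5.13 on replicate 2 at its single probe (ILMN_1750469). It was the only one of the 5 genes with a value below 0. Its ranks among olfactory receptor probes, 30.9% and 76.6%, lay on either side of their median. The difference of 10.4 between replicates was matched or exceeded by 24.9% of olfactory receptor probes, so the higher value on replicate 2 was within the scatter of background probes.

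**Figure D2:**
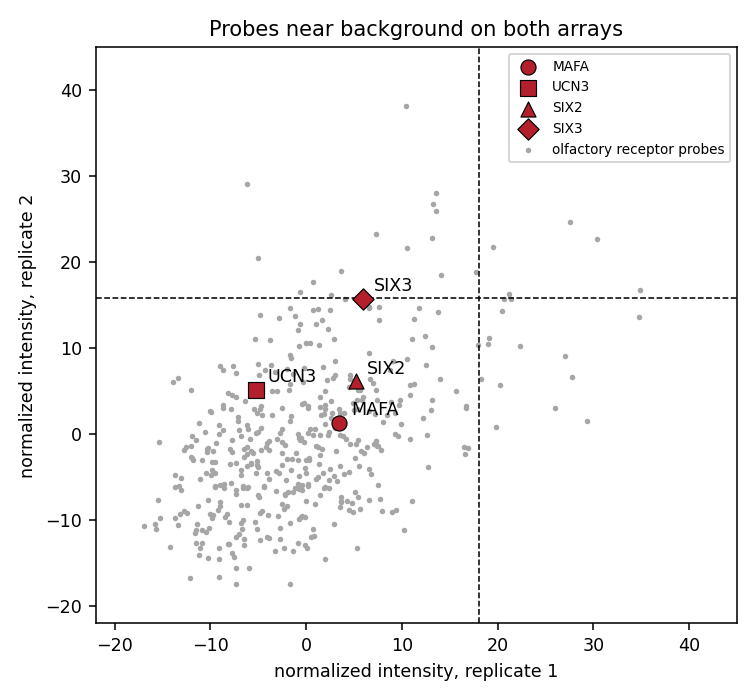
Normalized intensity on replicate 1 (horizontal axis) and replicate 2 (vertical axis) of *MAFA*, *UCN3*, *SIX2* and *SIX3* (red) and of olfactory receptor probes (grey), with the background floors as dashed lines. All 4 genes fall among the grey points, and *SIX3* sits just under the floor of replicate 2. The axes run from -22 to 45, which leaves out 4 olfactory receptor probes and both *ENTPD3* probes.

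The spread of the olfactory receptor probes shows how small these gaps are. Their difference between the arrays had an SD of 10.9 and its central 95% ran from -18.4 to 16.4. The differences of *MAFA*, *UCN3*, *SIX2* and *SIX3* all lay inside it. The order of these genes by intensity (*SIX3*, *SIX2*, *MAFA*, *UCN3* by the mean of both arrays) therefore has no weight, and brightness also depends on the probe.

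*ENTPD3* was clearly above background at each of its probes. The first (ILMN_1775114) had 181 and 138 on replicates 1 and 2, which is 10.1 and 8.67 times the floor. The second (ILMN_2087941) had 215 and 283, or 11.96 and 17.8 times the floor. No olfactory receptor probe reached any of these values, since the brightest had 121 on replicate 1 and 76.2 on replicate 2. Among all probes of the array, the *ENTPD3* probes ranked between the 85.3rd and the 90.9th percentile.

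The *ENTPD3* probes moved in opposite directions between the replicates. On the log2 scale, replicate 2 minus replicate 1 was -0.40 at the first probe and 0.39 at the second. Among 4407 named probes above background with a mean intensity of 100 to 400, this difference had an SD of 1.02, so both were within the usual spread. The average of the probes was 204 ± 8.43 (SD, n = 2 arrays), a small spread because the opposite moves cancel. The SD was 30.9 at the first probe and 47.8 at the second. Both probes were above background on both arrays, as was the case for 25.2% of genes with 2 probes.

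The 4 genes near background each had 1 probe, and for genes with 1 probe the share above background was 42.0%. A single probe is a limited reading. Of 2301 genes with 2 probes of which 1 or more was above background, 52.7% had the other probe at or under the floor on an array. *PDX1*, a beta-cell transcription factor, is such a gene, with 2036 and 3079 on replicates 1 and 2 at its brighter probe and 23.5 and 9.48 at the other. A value near the floor at 1 probe thus does not show that a transcript was absent. In RNA from many cells, few cells with the transcript and little of it in each cell cannot be told apart.

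The sorting markers give a second measure of that limit. *INS* had 16501 on both arrays. The sorted values of the arrays were almost the same, so this equality reflects a like rank and not a measured equality of RNA. *NKX6-1*, whose protein was sorted for, had 78.9 on replicate 1 and -4.24 on replicate 2 at its only probe, the second value being within background.

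The genes near background were then set beside other members of their own families, from lists chosen with earlier results of these data known. Of the other MAF factors, 2 of 4 measured genes were above background, beside 46.9% of all named genes. *MAF*, a large MAF factor like *MAFA*, had 93.9 and 89.7 at 1 of its 2 probes. *MAFF*, a small MAF protein that lacks an activation domain, had 81.7 and 481 at 1 of 3 probes. *MAFG*, another small MAF, was above background on replicate 1 only. *NRL*, the MAF factor of the retina, was not above background on either array. *MAFK* was not analysed here.

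Among the relatives of *SIX2* and *SIX3*, *SIX4* and *SIX5* were above background. *SIX5* had 91.6 and 75.4 on replicates 1 and 2, and *SIX4* had 24.0 and 62.6. *SIX6*, the closest relative of *SIX3* and a factor of the eye field, had -1.17 and 5.45. With the EYA cofactors and DACH corepressors that work with these homeodomain factors, 5 of 9 measured genes were above background. That share is near the 46.9% of all named genes. *DACH1* was above background at all 3 of its probes, with 322 and 811 on replicates 1 and 2 at the brightest. *EYA3* had 21.1 and 42.7 at 1 of 2 probes, *EYA1* and *EYA2* passed the floor on replicate 2 only, and *EYA4* on neither array.

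*SIX3* is also a gene of the eye field and forebrain, and *SIX2* of kidney progenitors. Of the other markers of eye field and forebrain, 0 of 5 measured were above background on either array, beside 59.4% of all named genes. They were *RAX*, *LHX2*, *OTX2*, *FEZF2* and *HESX1*, and their brightest probes ranged from -6.31 to 3.96. Of the kidney progenitor markers, 1 of 6 was above background on both arrays, beside 46.9% of all named genes. It was *OSR1*, with 24.1 and 32.3. *CITED1*, *SALL1*, *WT1*, *PAX2* and *PAX8* were above it on neither array.

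Of the other genes of the urocortin pathway, 2 of 6 measured were above background, beside 46.9% of all named genes. The related peptide *UCN2* had -5.48 and 1.45. *UCN*, urocortin 1, had 97.1 and 23.2 on replicates 1 and 2 at the brighter of 2 probes. *CRH*, the founding peptide of the family, had -0.922 on replicate 1 and 116 on replicate 2, passing the floor there alone. Urocortin 3 acts through *CRHR2*, whose brighter probe had 4.04 and 8.99, not above background. The other receptor, *CRHR1*, had 30.8 and 20.9 at 1 of 2 probes.

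Of the other ENTPD enzymes, 3 of 7 measured were above background, beside 46.9% of all named genes. *ENTPD6* had 156 and 53.1 on replicates 1 and 2 at 1 of 2 probes, and 2.31 and -11.6 at the other. *ENTPD7* had 22.2 and 60.1, and *ENTPD5* 25.9 and 22.96. *ENTPD4* passed the floor on replicate 1 only, with 116 and -11.7. The surface enzymes most like *ENTPD3* in action, *ENTPD1*, *ENTPD2* and *ENTPD8*, were not above background on either array. *NT5E*, which turns the AMP they leave into adenosine, had 6.40 and 3.52. Over these enzymes and the receptors for ATP and adenosine, 5 of 19 were above background, beside the same 46.9%. *ADORA2A*, an adenosine receptor, had 527 and 404, and the ATP-gated channel *P2RX4* had 305 and 50.2.

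**Figure D3:**
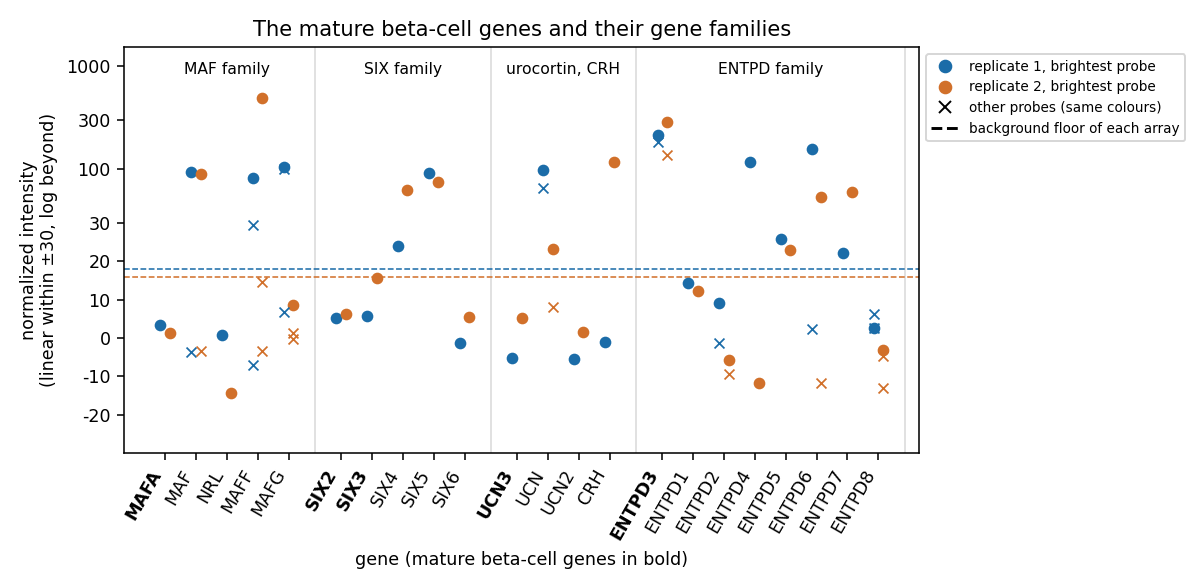
Normalized intensity (vertical axis, linear within ±30 and logarithmic beyond) of every probe of the mature beta-cell genes (bold) and of measured relatives, with circles for the brightest probe, crosses for other probes, blue for replicate 1 and orange for replicate 2. *MAFA*, *SIX2*, *SIX3* and *UCN3* lie under the dashed floors of 18.0 and 15.9, where *MAF*, *MAFF*, *SIX4*, *SIX5* and *UCN* have a probe above both. Both *ENTPD3* probes lie above both floors. Brightness also depends on the probe, so the height of different genes is not an order of their RNA.

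Near-background *MAFA* stood beside well-detected partners. Of the factors that bind the insulin promoter with it, 4 of 5 measured were above background, beside 46.9% of all named genes. The list is short and was chosen with earlier results known, so nothing is read from that difference. *NKX2-2* had 2973 and 2921 on replicates 1 and 2, *ISL1* 3007 and 4140, and *PAX6* 608 and 449 at its brightest probe. *NKX6-1* was the exception. Of genes reported as *MAFA* targets, mostly in rodents, 4 of 6 were above background, beside the same 46.9%. They were *INS*, the zinc transporter *SLC30A8* (2756 and 2412), *G6PC2*, a glucose-6-phosphatase subunit (668 and 1976 at 1 of 3 probes), and pyruvate carboxylase, *PC* (41.8 and 68.3 at its brightest probe). The glucose transporter *SLC2A2* (-2.24 and -10.7) and the incretin receptor *GLP1R* (-8.86 and -11.3), each with 1 probe, were not above background. The relation of these genes to the level of *MAFA* was not tested.

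The other listed genes of mature beta cells were mostly detected, with 8 of 11 measured above background, beside 46.9% of all named genes. At the 99th percentile floor 6 of 11 were, beside 40.6%. With the mean of a gene's probes 7 of 11 were, beside 44.2%. *CHGB*, a granule protein, had 2307 and 5242 on replicates 1 and 2. *SYT4*, a synaptotagmin that in mice tunes insulin release as beta cells mature, had 445 and 1151. *ESRRG*, a nuclear receptor of metabolic maturation, had 29.7 and 152 at 1 of 3 probes. *IAPP*, the hormone released with insulin, had 273 and 2107. *PFKFB2*, a glycolytic regulator, had 79.3 and 19.7 at the brightest of 3 probes. *WNT4* (30.2 and 6.60) and *TRPM5* (135 and 8.57) were above the floor on replicate 1 only and *ADCYAP1* on neither array. Of the genes of immature beta cells and endocrine progenitors, 7 of 9 were above background. *PAX4* had 894 and 416, *SOX4* 407 and 664, and *SOX11* 62.5 and 182 at 1 of 2 probes, while the progenitor factor *NEUROG3* had 13.9 and 13.3.

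Transcripts used as markers of other pancreatic cells were present in the same RNA. The alpha-cell hormone *GCG* had 4606 and 6346 on replicates 1 and 2 and the delta-cell hormone *SST* 1924 and 3028. The duct keratin *KRT19* had 1022 and 926. Of 7 measured markers of other pancreatic cells, 4 were above background, beside 46.9% of all named genes. The acinar gene *CPA1* passed the floor on replicate 1 only (22.2 and -4.57), and *PRSS1* and *PECAM1* on neither array. Whether these transcripts came from other cells or from the insulin-positive cells themselves was not tested. The relation of these markers to the levels of *MAFA*, *UCN3*, *SIX2*, *SIX3* and *ENTPD3* was not tested either.

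**Figure D4:**
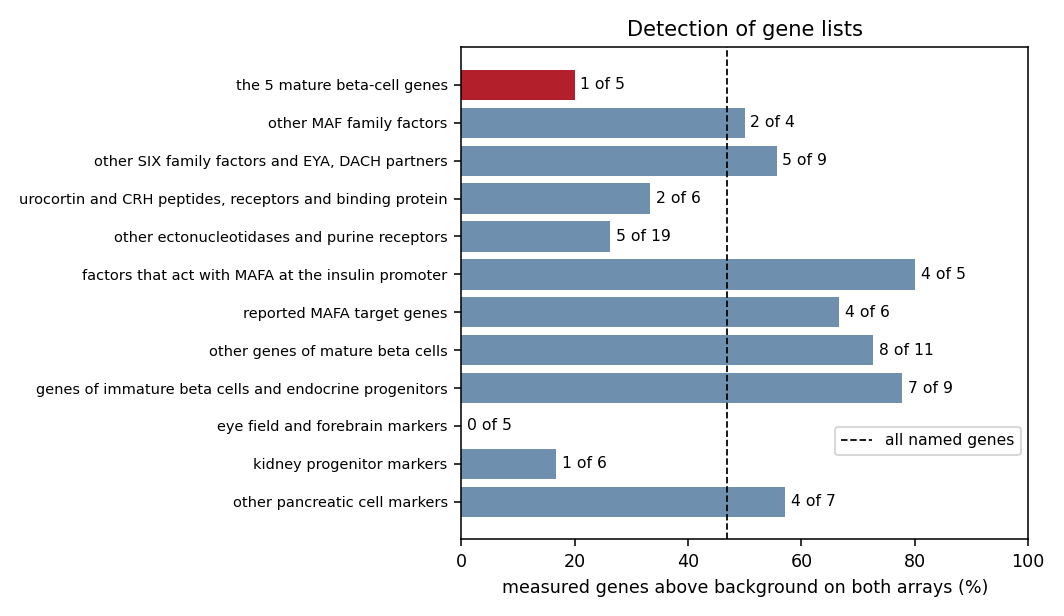
Percentage of measured genes above background on both arrays (horizontal axis) for the 5 mature beta-cell genes (red) and for each other list (blue), with the counts beside the bars. The dashed line is the 46.9% of all named genes. The bar of the 5 genes, at 1 of 5, stands for *ENTPD3* alone, and the other genes of mature beta cells reach 8 of 11.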

How the data were processed

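The authors deposited a linear intensity for each probe on each array, made with GenomeStudio per the submitters' processing notes. Its version and settings are not given in the sources used here. Per the series design text, they were normalized together with published arrays, which were not analysed here. The sorted values of both arrays differed by at most 0.155, so a shift shared by all genes would not show. No detection p-value was used, and arrays carry no read depth: precision is limited by there being 2.

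Gene names came from the platform annotation held by GEO (30113 probes with 1 gene, 8 with several, 17202 unnamed here). Symbols were updated by Entrez identifier for 30074. The floor, ranks and counts were computed in Python 3.11.15 with numpy 2.4.6 and pandas 2.3.3. The floor code was run on simulated data in which the raised probes lay far above the floor. That run did not examine calls for probes close to the floor. With 1 group of 2 arrays, no test was run. Every probe of the 5 genes is described, and any measured gene of the lists (87 of 98 listed) could be named. Chromosomal neighbours were added after the data were seen. The genes and lists were chosen with earlier results of these data known. Alternatives changed the floor, the probes that set it, the arrays required and the scaling.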

Additional observations from a re-analysis of the deposited data

How the results depend on the processing

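*ENTPD3* was above background, and *MAFA*, *UCN3* and *SIX2* were not, under 9 other settings and under 1 added later. *SIX3* was not above background under those 9 settings. The added one, chosen after seeing the data, took the 90th percentile floor on either array. It gave 2 of the 5 genes, with *SIX3* passing on replicate 2, beside 65.5% of all named genes. Dividing each array by its median positive value changes nothing by construction, since floor and values scale together. Some other settings could not raise a gene whose only probe was under the floor on both arrays. These were the 99th percentile floor, either array, each array alone and the mean of a gene's probes. Only the lower floors could have changed the call of such a gene. The count of other listed genes above background, 42, ran from 31 at the 99th percentile floor to 58 under the added rule, and the share of all named genes from 40.6% at the 99th percentile floor to 59.4% for either array among the 9 settings. At the 99th percentile floor the list of homeodomain relatives with EYA and DACH genes had 3 of 9, the urocortin pathway 0 of 6 the purine genes 3 of 19 and the kidney progenitor markers 0 of 6, without *OSR1*. Under the added rule the purine genes had 11 of 19, beside the 65.5% of all named genes. With the mean of a gene's probes the urocortin pathway had 0 of 6. Ranked among all probes of the array, *MAFA* lay above 38.9% and 32.3% of them on replicates 1 and 2 and *SIX3* above 45.8% and 62.8%. With 2 arrays and 1 probe for each gene near background, a level under the floor limits the signal at that probe and not the amount of RNA.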

Other observations

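The chromosomal neighbours of the 5 genes were looked at after the data were seen, taking the nearest 2 measured genes on each side in RefSeq order. Of 16 such genes, not counting *SIX2* and *SIX3*, which are each other's nearest measured neighbour on one side, 10 were above background, beside 46.9% of all named genes. *MAFA-AS1*, a long noncoding RNA gene next to *MAFA*, had 45.7 and 53.7 on replicates 1 and 2 at its single probe, while *MAFA* had 3.46 and 1.34. *NET1*, near *UCN3*, had 415 and 410 at its brightest of 3 probes. *PREPL*, the nearest measured gene on the far side of *SIX3*, had 174 and 356, and *SRBD1*, beyond *SIX2*, had 46.7 and 110. Near *ENTPD3*, *EIF1B* had 630 and 793 and *RPL14* 1610 and 1884. *RHPN1* and *TUBAL3* passed the floor on replicate 1 only, and *PRKCE*, *SLC3A1*, *MYRIP* and *ZNF620* on neither array. The relation of these values to those of the 5 genes was not tested.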
